A study of Mus musculus with 4 samples.

Results

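The copies of the spliceosomal small nuclear RNAs (snRNAs) U1, U2 and U5 were followed in RNA immunoprecipitation (RIP) libraries from testes of C57BL/6 mice aged 8 weeks. The members were the gene models Rnu1a1, Rnu1b1, Rnu1b2, Rnu1b6, Rnu2-10 and Rnu5g, together with every predicted model named Gm22 to Gm26 plus 3 further digits whose length equalled that of Rnu1a1 (164 nt), Rnu2-10 (191 nt) or Rnu5g (116 nt). This rule found 83 of the 50600 gene models, 37 in the U1-length, 15 in the U2-length and 31 in the U5-length group. Rnu1b1 and Rnu1b2 (165 nt) and Rnu1b6 (166 nt) were put in the U1-length group by symbol. The rule read no counts. RIP pulls a protein out of a lysate with an antibody on beads and sequences the RNA that comes along. The 2 groups were a RIP with an antibody to LARP7 (2 libraries) and a RIP with non-specific IgG (2 libraries), which measures RNA that sticks without that antibody. Both groups came from the same kind of tissue, lysed in 150 mM NaCl, kept with the beads for 4 h and washed in 500 mM NaCl, and the libraries were selected for RNAs of 15 to 300 nt. The series calls the replicates biological without saying whether each had its own animal. The p-values therefore cover no more than the spread among these 4 libraries, which may be technical.

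In the major spliceosome U1 pairs with the start of an intron, U2 pairs with the branch site, and U5 holds the exon ends that are to be joined. All of them are made by RNA polymerase II and carry a ring of Sm proteins. U6, which pairs with U2 in the active spliceosome, is made by RNA polymerase III and ends in a run of U. LARP7, a La-related protein, is known to bind the U-rich end of 7SK RNA and of U6. Mammalian U1, U2 and U5 come from many gene copies, and in mouse U1b is a sequence variant of U1 known mainly from embryonic tissue.

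The total expected counts were 4411271 to 6994514 per library. Expected counts are RSEM's estimates, in which a read that maps to several copies is split between them. The known partners checked the antibody. Rn7sk, the 7SK RNA, had 316542 and 931240 counts with the LARP7 antibody, against 38611 and 61786 with IgG, and the sum of the 382 snRNA models with the length of Rnu6 (107 nt) had 11332 and 42501 counts against 384 and 2550. All 9 germ cell marker mRNAs fixed for the tissue, such as Prm1 and Tnp1, had counts in all 4 libraries. Their summed level was 266.2 to 406.1 counts per 1000000 counts (CPM) with the LARP7 antibody and 918.5 to 1025.9 with IgG. CPM here divides counts by library sizes scaled with TMM factors, which assume that most genes do not change. With those factors 3 of the 9 germ cell markers were lower and 0 higher, where 9.69% of all 12234 models tested singly were lower and 14.5% higher. With library totals 8 of the 9 were lower, where 47.1% of all models were lower and 3.95% higher. Their part in the results below was not tested.

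Of the 83 models, 65 matched a gene of the RefSeq table by symbol. These comprised 51 given as snRNA and 14 given as pseudogenes, with 13 of the pseudogenes in the U5-length group. The label could be checked only through these annotations and through shared reads, since no sequence of a member was used here. Counts were concentrated in few models. In the U5-length group 19 of 31 models had 0 counts in all 4 libraries, and in the U1-length group 16 of 37. All 15 U2-length models had counts. The pseudogene models held 0.0019% of the U5-length counts over the 4 libraries.

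Copies with the same expected count in every library cannot be told apart and were summed. There were 4 such shared-read groups, holding 15 models. The largest was that of Rnu1a1 (ENSMUSG00000095969.1) with Gm22068, Gm22317, Gm22634, Gm23804, Gm25679 and Gm26444. In GRCm38.p6, the assembly of mm10, Rnu1a1 lies on chromosome 11 from 87422867 to 87423030 and Gm22068 ends nearby at 87426879, while Gm22317, Gm22634, Gm25679 and Gm26444 lie on chromosome 12. The chromosome 12 cluster spans 54696782 to 54738622 and also holds Gm22513, a U1-length copy with counts of its own. Rnu1b1 (ENSMUSG00000095580.1) and Rnu1b2 (ENSMUSG00000093834.1) on chromosome 3 formed the second U1 group, and Rnu1b6 (ENSMUSG00000065773.1), which ends at 96460189 on the same chromosome, had counts of its own. The U2 groups were Rnu2-10 (ENSMUSG00000065944.1, chromosome 11, 101658238 to 101658424) with Gm23849, Gm23971 and Gm24950, and the pair Gm23444 and Gm23472, which lie on chromosomes 11 and 1. The RefSeq gene of Rnu2-10 is 187 nt long, shorter than the 191 nt of its model in the files. No U5-length copies shared identical counts. Rnu5g (ENSMUSG00000095892.1, chromosome 9, 65201726 to 65201841) lies beside Gm25313, and Gm25099, Gm23143 and Gm23287 lie together on chromosome 4.

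The first comparison asked how much of each snRNA came with the LARP7 antibody and how much with IgG. All 83 models together made up 0.888% ± 0.0685 of each LARP7 library's counts and 4.35% ± 2.004 of each IgG library's (SD, n = 2 each). The U2-length models took 0.754% ± 0.0017 and 1.99% ± 0.405. The U1-length models took 0.0890% ± 0.0414 with the LARP7 antibody and 1.24% ± 0.517 with IgG, and the U5-length models 0.0455% ± 0.0254 and 1.12% ± 1.08. None of these 3 groups took a larger share with the LARP7 antibody. These shares describe the RNA that came with each antibody, and each share also depends on the other RNAs in its library. They do not measure how much of an snRNA the tissue held. As the lysates were of whole testis, the cell types that the RNA came from cannot be told apart.

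U1-length and U5-length snRNAs were lower with the LARP7 antibody, and U2-length snRNAs were not called. Of 12201 rows tested in this fit, with the copies of each length group summed, 9.68% were called lower and 14.5% higher. These shares were 47.0% and 3.96% with library totals in place of TMM, and 5.88% and 14.0% with DESeq2. In 35.5% of the rows both LARP7 values lay below both IgG values. The U1-length sum had 4133 and 7692 counts with the LARP7 antibody, against 61215 and 70884 with IgG. At TMM-scaled sizes these were 1073.9 and 1763.1 CPM against 4780.0 and 11230.6 CPM, so the groups did not overlap. Its log2 fold change was -2.50 (SE 0.80, edgeR quasi-likelihood test, adjusted p = 0.0442), which is 5.64-fold lower with the LARP7 antibody. Leaving out LARP7 replicate 1 (-2.20, edgeR adjusted p = 0.333), LARP7 replicate 2 (-2.91, edgeR adjusted p = 0.282) or IgG replicate 2 (-1.71, edgeR adjusted p = 0.0955) ended the call.

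The U5-length sum had 1906 and 4126 counts with the LARP7 antibody, against 24681 and 83065 with IgG. In CPM these were 495.3 and 945.7 against 1927.2 and 13160.5. The groups did not overlap, and IgG replicate 2 lay far above the other 3 libraries. The summed germ cell markers were also lower with the LARP7 antibody (above), and their part was not tested. The log2 fold change was -3.39 (SE 1.00, edgeR adjusted p = 0.0350). Without IgG replicate 2 it was -1.38 (edgeR adjusted p = 0.186), and the call was also lost without LARP7 replicate 1 (-3.02, edgeR adjusted p = 0.242) or LARP7 replicate 2 (-3.94, edgeR adjusted p = 0.198).

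The U2-length sum had 52066 and 49099 counts with the LARP7 antibody, against 119498 and 100618 with IgG. In CPM these were 13529.2 and 11254.3 against 9331.1 and 15941.5, and the LARP7 values lay between those of IgG. The log2 fold change was -0.028 (SE 0.76, edgeR adjusted p = 0.981), which does not show that the groups were equal. Scaling by library totals in place of TMM moved the median log2 fold change of all rows to -1.46, against -0.0485. Relative to that median the U1-length sum was at -2.45 with TMM and -2.34 with library totals, the U5-length sum at -3.34 and -3.16, and the U2-length sum at 0.020 and 0.055. A change of scaling moves all rows by similar amounts, so the nearness of these values is no test of the scaling.

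**Figure D1:**
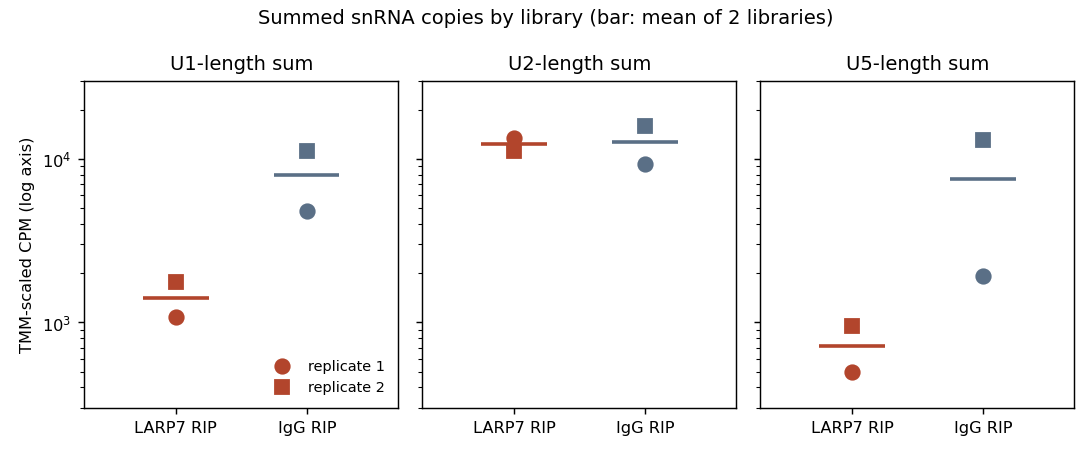
TMM-scaled CPM (log axis) of the summed U1-length, U2-length and U5-length models in each library, LARP7 RIP and IgG RIP side by side, with circles for replicate 1, squares for replicate 2 and bars for the mean of 2 libraries. The U1-length and U5-length points of the LARP7 RIP lie below both IgG points, while the U2-length points of the groups overlap.

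Ratios between the groups within a library do not depend on any scaling between libraries. U2-length counts were 12.6 and 6.38 times the U1-length counts with the LARP7 antibody, against 1.95 and 1.42 times with IgG. Both LARP7 libraries lay above both IgG libraries, with a difference of 2.43 in the mean log2 ratio, 5.39-fold. U2-length over U5-length was 27.3 and 11.9 with the LARP7 antibody, against 4.84 and 1.21 with IgG. The difference was 2.90 on the log2 scale and the groups again did not overlap, with IgG replicate 1 well above IgG replicate 2. U1-length over U5-length was 2.17 and 1.86 with the LARP7 antibody and 2.48 and 0.853 with IgG, and these overlapped (difference 0.47, and -0.30 without IgG replicate 2). The exact two-sided permutation p was 0.333 for both ratios with U2 and 1 for U1 over U5 (0.5, 0.5 and 1 with Benjamini-Hochberg adjustment over the 3 ratios). Since 0.333 is the smallest p that 2 libraries against 2 can give, these ratios are descriptions.

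**Figure D2:**
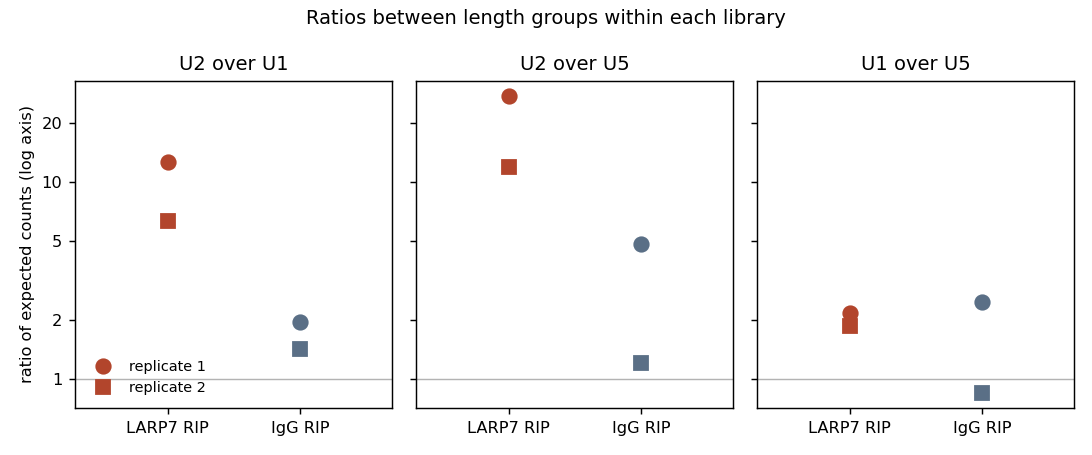
Ratio of summed expected counts between length groups in each library (log axis; the grey line marks equal counts), LARP7 RIP left and IgG RIP right. U2 over U1 is 6.38 to 12.6 in the LARP7 RIP and 1.42 to 1.95 in the IgG RIP, while U1 over U5 overlaps between the groups.

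Per length, with the authors' TPM, U2-length models had the highest level in both LARP7 libraries and in IgG replicate 1, and U1-length models the next. In IgG replicate 2 the U5-length level was the highest, at 20126 TPM, against 5773 in IgG replicate 1. With the LARP7 antibody the U2-length models had 1934 ± 722 TPM, the U1-length models 312 ± 240 and the U5-length models 297 ± 248 (SD, n = 2). These SDs are between libraries that hold both groups. Within LARP7 replicates 1 and 2 the U1-length level was 1.17 and 1.02 times the U5-length level. With IgG the U5-length models had 12950 ± 10149 TPM, the U2-length models 11442 ± 1191 and the U1-length models 8654 ± 1044, and the U5-length level overlapped the other two.

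The copies were then compared singly, each shared-read group as 1 item. There were 25 items tested, covering 36 of the 83 models, and 11 were lower and 0 higher with the LARP7 antibody. In the same fit 9.63% of 12223 rows were called lower and 14.4% higher. At an unadjusted p under 0.05 edgeR had 14 lower and 1 higher, and the share of all rows at that level was not counted. DESeq2 called 12 lower and 0 higher, where it called 6.01% of all rows lower and 14.0% higher. With library totals 18 items were lower and 0 higher, where 46.8% of all rows were lower and 3.94% higher. An item could pass the filter on low counts through 1 group alone, so these numbers do not stand for all copies. By length group, 5 of 8 U1-length items, 0 of 10 U2-length items and 6 of 7 U5-length items were called lower. For the U2-length items the count lower was also 0 at an unadjusted p and with DESeq2. With library totals 3 of the 10 were called lower, namely the Gm23444 pair, Gm25939 and Gm24497. With limma on log2(TPM + 0.1) 4 of the 10 were called lower, where 6353 of all 12223 rows were. Copies of a group share sequence and reads and do not count as separate support for its sum.

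Among the U1-length items the Rnu1a1 group carried most of the counts, 2936 and 5894 with the LARP7 antibody against 49486 and 59780 with IgG. Its CPM was 763.2 and 1350.9 against 3866.0 and 9464.5, without overlap (log2 fold change -2.66, SE 0.81, edgeR adjusted p = 0.0379). Leaving out LARP7 replicate 1 (-2.32), LARP7 replicate 2 (-3.13) or IgG replicate 2 (-1.83) ended this call too. Gm22513, the neighbour with reads of its own, had 1053 and 1442 counts against 9648 and 8342, and a log2 fold change of -1.78 (SE 0.66) that missed the threshold (edgeR adjusted p = 0.0701). It passed with DESeq2 (-1.72, DESeq2 adjusted p = 0.00433), without a filter (-1.86, edgeR adjusted p = 0.0418), with the replicate block (-1.73, edgeR adjusted p = 0.0235), without IgG replicate 1 (-2.13, edgeR adjusted p = 0.0301), with library totals and with limma on log2(TPM + 0.1). RSEM's posterior SD, its own estimate of the error from splitting reads, was at most 0.101 of the Gm22513 count.

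The models with U1b symbols had far fewer counts than the Rnu1a1 group. The pair Rnu1b1 and Rnu1b2 had 99 and 281 counts with the LARP7 antibody and 444 and 1099 with IgG, or 25.7 and 64.4 CPM against 34.7 and 174.0 CPM. These overlapped, and the log2 fold change of -1.21 (SE 0.78, edgeR adjusted p = 0.285) became 0.42 without IgG replicate 2. Rnu1b6 had 32 and 60 counts against 244 and 487 and was called lower (-2.11, SE 0.66, edgeR adjusted p = 0.0489), a call that ended when LARP7 replicate 1 (-1.82), LARP7 replicate 2 (-2.53) or IgG replicate 2 (-0.74) was left out. Its posterior SD reached 0.735 of its count in a library. As a share of the U1-length counts the U1b genes made up 3.79% ± 0.904 with the LARP7 antibody and 1.68% ± 0.787 with IgG (SD, n = 2 each).

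Of the rarer predicted U1-length copies, Gm24924 had 5 and 10 counts with the LARP7 antibody against 112 and 150 with IgG, and was called lower (-3.14, SE 0.63, edgeR adjusted p = 0.0105). Gm26244 had 2 and 0 against 24 and 49 (-4.16, SE 1.22, edgeR adjusted p = 0.0322). In a library RSEM's posterior SD reached 0.52 of the count for Gm24924 and 0.89 for Gm26244, whose LARP7 counts were near 0. The Gm26244 call was lost without LARP7 replicate 2 (-3.15) or IgG replicate 2 (-2.78). Gm23686 had 4 and 0 against 42 and 26 and was not called (-2.84, edgeR adjusted p = 0.0656). It passed with library totals (-4.25), without a filter (-2.91) and with limma on log2(TPM + 0.1) (-4.83). With DESeq2 (-2.83), the replicate block (-2.95) and limma on log2(TPM + 1) (-2.31) it did not pass. Gm25682 had 1 and 2 against 4 and 24 and was not tested. Gm24305 was estimated at 0 in both LARP7 libraries, against 1193 and 916 counts with IgG, and passed the test (edgeR adjusted p = 0.00125). RSEM's posterior SD of those zeros was 69.75 and 87.15 counts, so the split of reads between it and other copies is uncertain and no fold is given.

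All 10 tested U2-length items missed the threshold, with log2 fold changes of -0.71 to 2.06. The Rnu2-10 group had 33242 and 32137 counts with the LARP7 antibody, against 67846 and 53435 with IgG. This was the most of any item in both LARP7 libraries and IgG replicate 1, while in IgG replicate 2 the Rnu1a1 group had more. In CPM these were 8640.9 and 7365.7 against 5300.3 and 8459.9, with overlap (log2 fold change 0.22, SE 0.74). The pair Gm23444 and Gm23472 had 11701 and 10358 counts against 34855 and 29741 (-0.46, SE 0.71), and Gm25939 on chromosome 1 had 2910 and 3220 against 8422 and 11267 (-0.71, SE 0.70). The next most abundant copies were Gm25360 (0.23, SE 0.61), Gm22973 (0.13, SE 0.58), Gm26316 (0.26, SE 0.58), Gm24497 (-0.14, SE 0.50) and Gm25202 (0.10, SE 0.78). With library totals the log2 fold changes of the Rnu2-10 group, Gm25360, Gm22973, Gm26316 and Gm25202 were all negative, at -1.32 to -1.14, close to the median of all rows at that scaling. Gm26108 on the X chromosome, singled out after its values were seen, had 40 and 39 counts with the LARP7 antibody against 10 and 26 with IgG (2.06, SE 0.71, edgeR adjusted p = 0.0578). Both of its LARP7 values lay above both IgG values in CPM, as in 33.0% of all rows. It passed without a filter (1.99, edgeR adjusted p = 0.00991), with the replicate block (2.31, edgeR adjusted p = 0.0315) and without IgG replicate 2 (3.65, edgeR adjusted p = 0.000335). It was at 0.72 with library totals and below 0 with limma on TPM, and its posterior SD reached 0.766 of its count.

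In the 7 tested U5-length copies the posterior SD was at most 0.0604 of the count. Rnu5g had 540 and 1165 counts with the LARP7 antibody and 6825 and 26020 with IgG, or 140.4 and 267.0 CPM against 533.2 and 4119.5 CPM (log2 fold change -3.51, SE 1.00, edgeR adjusted p = 0.0319). It had more counts than any other U5-length copy in each of the 4 libraries. Gm25099 had 318 and 853 against 5591 and 17833 (-3.55, SE 0.97), Gm25313 had 498 and 812 against 5116 and 17790 (-3.35, SE 0.94), and Gm24871 had 157 and 385 against 2684 and 7741 (-3.47, SE 0.91). Gm23143 had 212 and 387 against 2581 and 5857 (-2.97, SE 0.81), and Gm23287 had 47 and 101 against 439 and 1044 (-2.49, SE 0.76). These 5 copies were called lower, with edgeR adjusted p of 0.0249 to 0.0438. Gm22265 on chromosome 1, with 135 and 420 counts against 1443 and 6778, was not called (-3.17, SE 1.08, edgeR adjusted p = 0.0645). It passed with library totals (-4.38), without a filter (-3.25), with the replicate block (-2.59) and with limma on log2(TPM + 0.1) (-5.18). With DESeq2 (-3.12) and limma on log2(TPM + 1) (-5.10) it did not pass. Each of the 6 calls was lost when LARP7 replicate 1, LARP7 replicate 2 or IgG replicate 2 was left out, and without IgG replicate 2 the log2 fold changes of the called copies were -1.66 to -0.91. In all 7 copies both LARP7 values lay below both IgG values, and so did 35.6% of all rows tested.

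**Figure D3:**
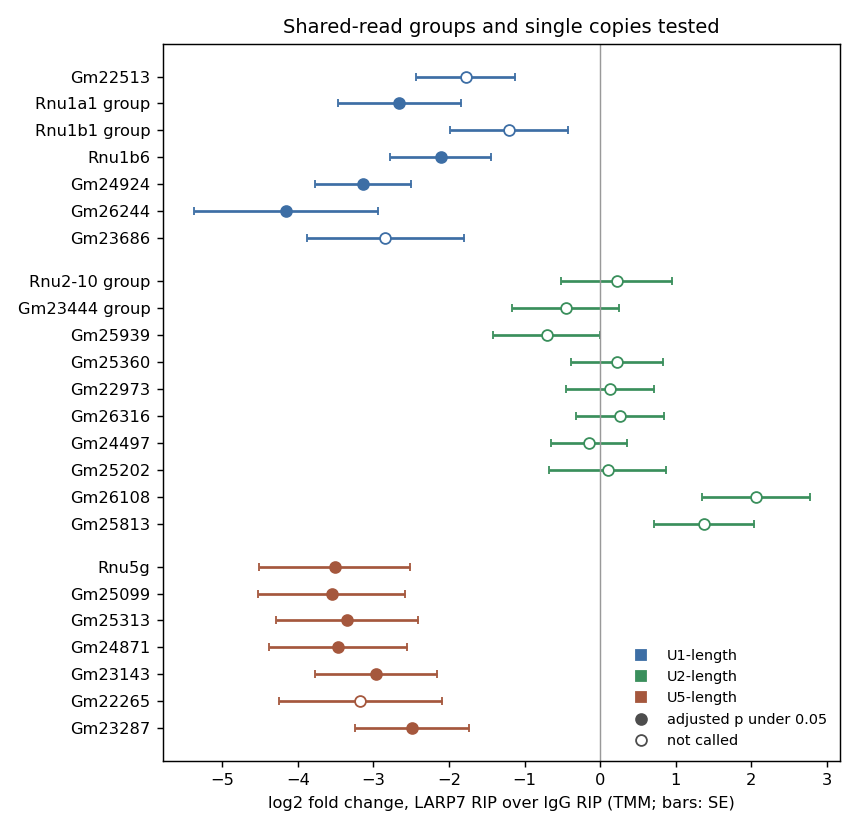
Log2 fold change of the LARP7 RIP over the IgG RIP (TMM scaling, bars show the SE) for the tested shared-read groups and single copies with counts in both groups, by length group. Filled points passed an adjusted p of 0.05. U1-length and U5-length items lie left of 0 and U2-length items lie around it.

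The make-up of each length group was compared next, as shares of its own counts. In the U2-length group the Rnu2-10 group held 64.6% ± 1.14 in the LARP7 libraries and 54.9% ± 2.59 in the IgG libraries (SD, n = 2 each). The pair Gm23444 and Gm23472 held 21.8% ± 0.974 and 29.4% ± 0.276, and Gm25939 6.07% ± 0.685 and 9.12% ± 2.93. In all of these the libraries of the groups did not overlap. Gm25360 did not overlap either, while the shares of Gm22973, Gm26316, Gm24497 and Gm25202 did. RSEM's posterior SD reached 0.394 of the count for a copy of the Rnu2-10 group and 0.370 for a copy of the pair. The split of reads between U2-length copies is therefore uncertain beyond the SD between libraries. In the U1-length group the Rnu1a1 group held 73.8% ± 3.95 with the LARP7 antibody and 82.6% ± 2.47 with IgG. Gm22513 held 22.1% ± 4.76 and 13.8% ± 2.82, and both were without overlap. The shares of Gm24305, the Rnu1b1 pair, Rnu1b6 and Gm24924 did not overlap, and those of Gm26244, Gm23686 and Gm25682 did. For a copy of the Rnu1a1 group the posterior SD reached 1.08 of the count. In the U5-length group the shares differed by -3.38 to 1.82 percentage points. Rnu5g held 28.3% ± 0.0504 in the LARP7 libraries and 29.5% ± 2.60 in the IgG libraries, Gm25313 22.9% ± 4.55 and 21.1% ± 0.489, and Gm24871 8.79% ± 0.775 and 10.1% ± 1.10, all with overlap. Gm25099 (18.7% ± 2.82 and 22.1% ± 0.837) and Gm23287 (2.45% ± 0.0099 and 1.52% ± 0.369) did not overlap, while Gm23143 and Gm22265 did. Shares of a whole are tied to each other. An exact permutation test of 2 libraries against 2 gives no p under 0.333, so the shares are descriptions.

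**Figure D4:**
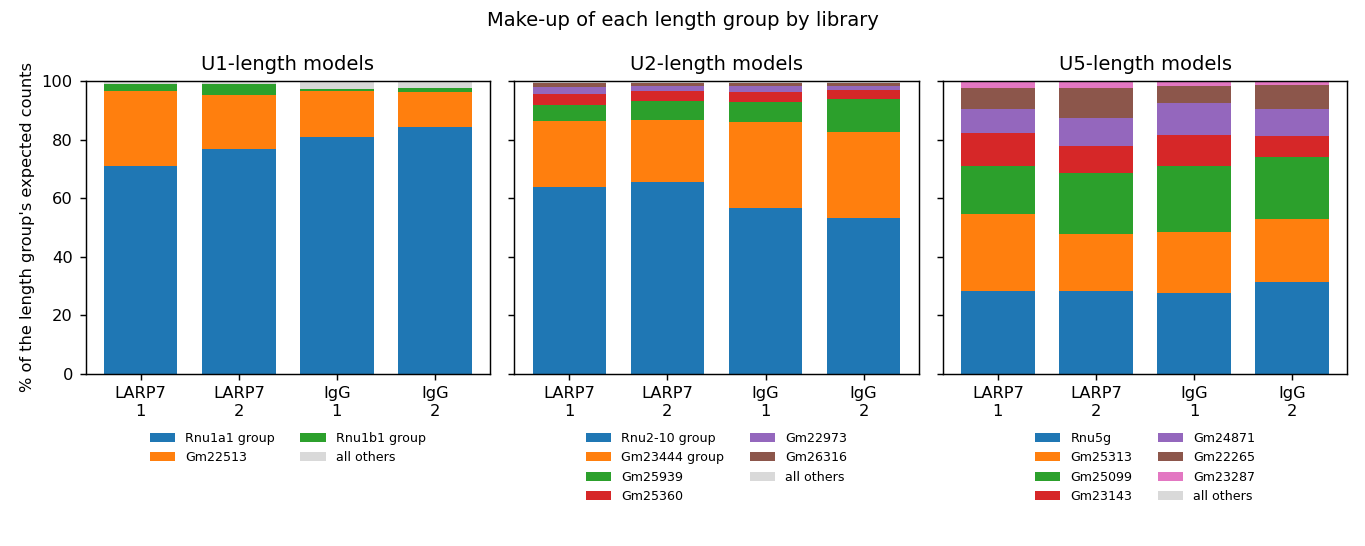
Share (%) of each length group's expected counts held by its shared-read groups and single copies in each library, LARP7 RIP libraries left and IgG RIP libraries right; copies averaging under 1% are pooled as all others. The Rnu2-10 group takes a larger part of the U2-length counts in the LARP7 RIP (64.6% on average, against 54.9%), and the shares of U5-length copies differ by -3.38 to 1.82 percentage points.

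Other named small nuclear and nucleolar RNAs gave a setting for these values. The 16 models tested included 8 copies of the nucleolar RNA U3b that fall into 2 sets with the same counts in every library, so they hold 10 distinct items. Of these 4 were higher and 1 lower, with a median log2 fold change of 0.82; over all 12234 models of that fit 14.5% were higher and 9.69% lower. With library totals 3 of the 10 items were higher and 3 lower (6 of the 16 models, since one U3b set counts 4 times). At that scaling 3.95% of all models were higher and 47.1% lower. Those higher with TMM were Rn7sk (4.53), Rnu6 (7.17, whose reads other U6 copies share), Rnu7 of histone pre-mRNA processing (4.04) and Rnu73b (1.63), with edgeR adjusted p of 0.00223 to 0.0464. Rnu12, the minor spliceosome's counterpart of U2, had 136 and 255 counts with the LARP7 antibody against 1518 and 2259 with IgG (-2.34, SE 0.67, edgeR adjusted p = 0.0295). Rnu11, the counterpart of U1, had 35 and 138 against 193 and 487 and was not called (-1.16, SE 0.92). The U3 models were not called, with log2 fold changes of -0.84 to 1.23.

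The mRNAs of the proteins that join these snRNAs were looked at as well. Of 43 mRNAs tested from lists of Sm proteins, proteins of the U1, U2 and U5 particles and snRNP assembly factors, 3 were higher and 3 lower, where 14.5% of all models were higher and 9.69% lower. Sf3a1 of the U2 particle had 80 and 147 counts with the LARP7 antibody against 157 and 57 with IgG (log2 fold change 1.35, edgeR adjusted p = 0.0387). Gemin4 (1.60) of the SMN complex and Wdr77 (1.88), which works with the Sm methyltransferase Prmt5, were also higher, with edgeR adjusted p of 0.0173 and 0.0160. Smn1 (-2.54), its helicase partner Ddx20 (-1.35) and Coil (-1.45), which encodes the Cajal body protein coilin, were lower, with edgeR adjusted p of 0.0380 to 0.0387. None of the 8 Sm, 3 U1 or 8 U5 protein mRNAs on the lists passed, with 18 tested. At an unadjusted p under 0.05 in edgeR 2 were higher and 1 lower, and the share of all models at that level was not counted. With library totals the 3 higher calls were lost and 20 of the 43 were lower, where 47.1% of all models were lower.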

How the data were processed

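The deposited files give, per library and gene model, an expected count (RSEM's estimate, with fractions for split reads), its posterior SD, the model's length in nt and the authors' TPM, which is the count divided by effective length and scaled to one total per library. The submitters' processing notes name mm10 and the tools cutadapt, Bowtie2 and RSEM, without a version in what was used here. From the expected counts, members were found by symbol and length, summed by shared counts or by length group, and rounded to whole numbers. The main test was edgeR 4.0.16 in R 4.3.3 with filterByExpr, TMM factors (0.558 to 1.85 over the libraries), robust quasi-likelihood F tests, two-sided, and Benjamini-Hochberg adjustment over all rows tested, at a threshold of 0.05. Antibody was the only term. An SE is the unshrunk log2 fold change over the square root of F. Alternatives were library totals, no filter, DESeq2 1.42.0, limma 3.58.1 on log2(TPM + 1) and log2(TPM + 0.1), a replicate block, other memberships and each library left out. Ratios were tested with exact permutations over libraries in scipy 1.17.1. The edgeR code was tested on simulated data.

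The genes with full values were the 6 members with Rnu symbols, every shared-read group with a mean of 10 or more counts, the 6 other single copies of each length group with the most counts, other listed snRNAs averaging 10 or more counts, and listed protein mRNAs that passed the test. The replicates differed beyond counting noise (chi-square over degrees of freedom 124 for the LARP7 pair and 53.7 for the IgG pair). Counts are of reads without molecular identifiers, so precision from depth covers counting error only. Members and lists were chosen with earlier results of these data known. Positions and biotypes come from RefSeq for GRCm38.p6, matched by symbol. Rnu4atac and Rnu6atac, on the list of other snRNAs, matched no symbol and were left out. Marker lists were tested with the same fit. Of 5 Sertoli and Leydig cell markers 1 was lower and 0 higher, where 9.69% of all models were lower and 14.5% higher. The 1 blood and vessel marker tested was not called. With library totals all 5 Sertoli and Leydig cell markers and the blood and vessel marker were lower, where 47.1% of all models were lower.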

Additional observations from a re-analysis of the deposited data

How the results depend on the processing

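The log2 fold changes of the U1-length and U5-length sums were negative in every alternative run. With limma on log2(TPM + 1) they were -5.03 and -5.48 and missed the threshold (limma adjusted p = 0.0508 for each), and that fit called 0 of all 12201 rows. Leaving out 1 library at a time gave -2.99 to -1.71 for U1 and -4.20 to -1.38 for U5, and only leaving out IgG replicate 1 kept the calls; the lone library of a group is then assumed to vary like the others. Library totals (-3.81 and -4.62), no filter, DESeq2, snRNA-only members and members without the Rnu genes kept both calls. The U2-length sum was at -1.41 with library totals (not called) and changed sign with DESeq2 (0.021) and with the replicate block (0.017), spanned -0.36 to 0.45 with 1 library left out (0.09 without LARP7 replicate 2), and was called lower only with limma on log2(TPM + 0.1) (-2.61), a fit that also called 6334 of the 12201 rows lower. The causes were not tested. The number of single items lower was 18 with library totals, 0 with log2(TPM + 1), 19 with log2(TPM + 0.1) and 2 to 16 with 1 library left out, against 11. The number higher was 1 without a filter, 1 with the replicate block and 0 to 1 with 1 library left out, against 0. The models of the other lists had 3 higher and 26 lower with library totals, against 7 and 4. With models of the same counts taken once these were 3 and 23 of 53, against 7 and 4. Over all models tested singly 3.95% were higher and 47.1% lower with library totals, against 14.5% and 9.69%.

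Sign changes of single items were these. With library totals, log2(TPM + 1) and log2(TPM + 0.1), in that order, the Rnu2-10 group had -1.17, -2.38 and -2.38, Gm25360 had -1.17, -2.36 and -2.38, Gm22973 had -1.32, -2.53 and -2.56, Gm26316 had -1.14, -2.32 and -2.36, and Gm25202 had -1.30, -1.78 and -2.52. Gm26108 had -0.16 and -0.22 with the same TPM settings. With 1 library left out the Rnu2-10 group spanned -0.077 to 0.64, Gm25360 -0.054 to 0.63, Gm22973 -0.39 to 0.50, Gm26316 -0.24 to 0.81, Gm25202 -1.32 to 1.20, Gm24497 -0.55 to 0.37, Gm25939 -1.25 to 0.23, the Gm23444 pair -0.79 to 0.041 and the Rnu1b1 pair -2.02 to 0.42. Among the ratios only U1 over U5 changed sign (-0.30 without IgG replicate 2; -0.30 to 1.24 with 1 library left out); U2 over U1 spanned 1.94 to 2.92 and U2 over U5 1.90 to 3.90, and these ratio alternatives were chosen after seeing the data.

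Same-numbered libraries deviated from their group means with r = 0.247 across 11666 genes, which are not independent replicates, and the labels do not say that the numbers pair them. With the replicate block the U1-length, U2-length and U5-length values were -2.41, 0.017 and -2.88 (edgeR adjusted p = 0.0114, 0.986 and 0.0114). In the block fit of single items 13 were lower and 1 higher, where 1411 of all 12223 rows were lower and 2097 higher. Over all 12223 rows tested singly, 1765 were higher and 1177 lower in the main fit. These numbers were 481 and 5715 with library totals and 1713 and 735 with DESeq2. With log2(TPM + 1) they were 0 and 0, and with log2(TPM + 0.1) 93 and 6353.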
